A study of Homo sapiens with 12 samples.

Results

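The genes described here are 51 transcripts whose proteins carry a cell from G1 into S phase and copy its DNA. They were chosen by symbol for their function, from the cyclins and the RB-E2F switch to the replication machinery, and all 51 were found among the 20433 genes listed in at least 1 library. Messenger RNA was sequenced from H1975, a line of human non-small cell lung cancer, after 2 days of 0.5 µg/ml doxycycline. All groups, the control included, received the drug and carry a doxycycline-inducible hairpin. The control group carries a control hairpin and is labelled WT, and the groups sh-A, sh-B and sh-C are labelled as knockdowns of KAT5, the gene of the histone acetyltransferase TIP60. The series' own design text compares the control with sh-B and sh-C as 2 separate TIP60 hairpins, while sh-A is known only from its sample titles and its own deposited comparison. Each group has 3 libraries, numbered 1, 2 and 3 for control and sh-C and 3, 4 and 5 for sh-A and sh-B, and library values are given below in that order. Whether the 3 libraries of a group were separate cultures, and whether a hairpin line is 1 clone, is not stated in the labels, so the p-values rest on a spread between libraries that may be technical.

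In G1, D-type cyclins with CDK4 or CDK6, and then E-type cyclins with CDK2, phosphorylate RB1 and its relatives and so release the E2F transcription factors. E2F factors activate genes for licensing, in which ORC, CDC6 and CDT1 load the MCM2-7 helicase onto origins, and for firing, in which CDC7, MCM10, CDC45 and the GINS complex switch that helicase on. At the fork, polymerases alpha, delta and epsilon copy the DNA on a PCNA clamp loaded by RFC, with nucleotides supplied by TYMS, TK1 and ribonucleotide reductase. Lung cancer lines divide continuously, and these transcripts are widely used to describe how actively such cells cycle. In RNA from a whole culture, a larger share of cells in S phase and more transcript per cell cannot be told apart.

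Expected counts per library summed to between 15631504 (control 2) and 28073366 (sh-C 2), and the 51 members had between 168.37 and 14680 counts in a library, so all passed the filter on low counts. KAT5 transcript, the check of the labels, was left at 67% of control with sh-A, 47% with sh-B and 27.3% with sh-C. In each hairpin group 1 library stood apart from the other 2: the root mean square log2 distance over all genes from the mean of the mates was 0.655 for sh-A 3, 0.449 for sh-B 3 and 0.363 for sh-C 1, while those mates differed from each other by 0.357, 0.321 and 0.326. In control the distances were 0.278 to 0.331. A set of 118 transcripts found almost only with sh-A summed to 2145, 388.3 and 396.5 CPM (counts scaled to a common library total) in sh-A 3, 4 and 5 and to 2.4 to 4.1 CPM elsewhere. All 10 markers of lung carcinoma epithelium were present, and their summed level was 5660 to 6000 CPM in control, 3410 to 3830 with sh-A, 4930 to 5090 with sh-B and 6030 to 6330 with sh-C. Of markers of other cells, 1 of 9 for fibroblasts, 5 of 9 for leukocytes and 3 of 7 for endothelium passed 1 CPM in any library, and CD3E, the defining T cell gene, was at 0 throughout. The leukocyte markers summed to 197 to 209 CPM in control, 119 to 146 with sh-A, 95.7 to 111 with sh-B and 141 to 172 with sh-C, and the fibroblast markers to 21.9 to 25.5, 18.7 to 23.5, 14.5 to 15.2 and 14.3 to 16.3 CPM. The endothelial sums were 7.3 to 7.76 CPM in control, 5.13 to 16.3 with sh-A, 3.06 to 3.83 with sh-B and 4.77 to 5.78 with sh-C. The part of these differences in the results was not tested.

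About as many members as not hold a short E2F-type word, a feature that their choice did not use, in the DNA around their starts. RefSeq promoter windows (GRCh38.p14, 250 bases before to 50 after the gene's own start) were matched for 42 of the 51, and they were searched on both strands for the E2F-type words TTTCCCGC, TTTCGCGC, TTTGCCGC and TTTGGCGC, with overlapping matches counted separately. At least 1 word stood in 22 of the 42 windows (52.4%), against 5.37% of the 10604 tested genes with a window and 3.32% of all 24884 windows of this length. The shares were 75% for the licensing genes, 62.5% for the cyclins, CDKs and RB-E2F genes, 53.8% for the polymerases, clamp and fork enzymes, 50% for the firing factors, 25% for nucleotide supply (1 of 4) and 0% for chromatin assembly (0 of 3). They were 20% for 30 other replication genes and 9.09% for 33 mitosis genes. The word CCAAT stood in 45.2% of the members' windows and 37.3% of those of tested genes. The 250 bases upstream of 9 members that differ between the hairpins are shown 5′ to 3′ on the gene's strand, with every match to an E2F-type word in capitals. These 9 were picked by hand and do not stand for the share of members with a word. Of those with a match, E2F1, RBL1, MCM6, MCM7 and PCNA fell with sh-B, POLA2 rose with sh-B and TYMS rose with sh-C. MCM6 also fell with sh-A, MCM7 rose with sh-A and sh-C, and PCNA rose with sh-C. Of those with none, RFC2 fell with sh-B, and FEN1 rose with sh-B and sh-C and fell with sh-A. These matches are letters in a window, not measured binding.
E2F1, chr20:33686386-33686635, minus strand: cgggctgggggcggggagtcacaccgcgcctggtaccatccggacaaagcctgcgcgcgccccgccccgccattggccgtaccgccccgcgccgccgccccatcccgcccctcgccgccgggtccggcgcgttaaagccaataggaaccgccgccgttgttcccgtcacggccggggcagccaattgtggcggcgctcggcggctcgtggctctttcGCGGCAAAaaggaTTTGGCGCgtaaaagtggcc
RBL1, chr20:37095998-37096247, minus strand: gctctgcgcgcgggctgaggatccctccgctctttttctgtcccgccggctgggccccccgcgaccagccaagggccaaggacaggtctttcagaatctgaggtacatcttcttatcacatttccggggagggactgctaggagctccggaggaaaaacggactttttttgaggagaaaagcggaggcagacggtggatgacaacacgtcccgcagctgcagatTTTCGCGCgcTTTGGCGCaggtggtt
MCM6, chr2:135876444-135876693, minus strand: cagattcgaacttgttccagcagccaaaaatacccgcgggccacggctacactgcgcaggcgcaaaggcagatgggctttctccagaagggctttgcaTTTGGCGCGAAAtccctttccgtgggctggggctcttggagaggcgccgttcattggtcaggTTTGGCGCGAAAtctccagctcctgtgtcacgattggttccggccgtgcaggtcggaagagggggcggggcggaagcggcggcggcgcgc
MCM7, chr7:100101398-100101647, minus strand: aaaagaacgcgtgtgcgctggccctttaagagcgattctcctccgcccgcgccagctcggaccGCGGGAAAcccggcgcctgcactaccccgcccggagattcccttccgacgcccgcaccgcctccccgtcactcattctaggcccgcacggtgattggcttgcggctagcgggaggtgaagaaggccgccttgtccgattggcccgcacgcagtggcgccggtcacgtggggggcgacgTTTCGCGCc
PCNA, chr20:5126623-5126872, minus strand: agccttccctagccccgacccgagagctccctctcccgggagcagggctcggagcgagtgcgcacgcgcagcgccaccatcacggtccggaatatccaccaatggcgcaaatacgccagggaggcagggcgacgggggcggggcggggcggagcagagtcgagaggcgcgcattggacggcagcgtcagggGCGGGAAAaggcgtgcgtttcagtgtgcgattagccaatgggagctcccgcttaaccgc
TYMS, chr18:657403-657652, plus strand: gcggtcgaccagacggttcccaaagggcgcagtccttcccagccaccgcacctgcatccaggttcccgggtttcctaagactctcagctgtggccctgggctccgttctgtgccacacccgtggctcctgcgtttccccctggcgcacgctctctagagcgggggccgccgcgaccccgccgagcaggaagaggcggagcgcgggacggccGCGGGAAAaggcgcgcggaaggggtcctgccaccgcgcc
POLA2, chr11:65261712-65261961, plus strand: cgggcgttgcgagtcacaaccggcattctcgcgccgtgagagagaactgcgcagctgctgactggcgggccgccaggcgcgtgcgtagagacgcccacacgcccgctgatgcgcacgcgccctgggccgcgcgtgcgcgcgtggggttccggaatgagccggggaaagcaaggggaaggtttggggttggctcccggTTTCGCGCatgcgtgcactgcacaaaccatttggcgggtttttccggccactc
FEN1, chr11:61792661-61792910, plus strand: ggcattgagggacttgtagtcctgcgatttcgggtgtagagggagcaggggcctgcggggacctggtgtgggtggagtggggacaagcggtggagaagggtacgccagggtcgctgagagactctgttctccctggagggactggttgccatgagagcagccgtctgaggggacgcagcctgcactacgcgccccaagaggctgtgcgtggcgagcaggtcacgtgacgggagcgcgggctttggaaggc
RFC2, chr7:74254400-74254649, minus strand: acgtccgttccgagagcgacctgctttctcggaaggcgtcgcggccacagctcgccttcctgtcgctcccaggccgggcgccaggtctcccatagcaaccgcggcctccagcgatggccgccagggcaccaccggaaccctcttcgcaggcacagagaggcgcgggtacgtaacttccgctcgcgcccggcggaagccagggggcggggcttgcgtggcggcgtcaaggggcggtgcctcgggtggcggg
In MCM6 the 4 matches form 2 pairs, a TTTGGCGC overlapped by a TTTCGCGC on the other strand, that begin 152 and 90 bases before the start. In E2F1 and RBL1 both matches lie close to the start, beginning 33 and 20 bases before it in E2F1 and 26 and 16 bases before it in RBL1. MCM7 has 1 match 187 bases before the start and 1 only 9 bases before it. The single matches of PCNA, POLA2 and TYMS begin 59, 53 and 39 bases before the start.

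H1975 control cells expressed the whole set. On the length-scaled FPKM scale, which allows genes to be compared, the members' median level in control was 34.4, against 3.24 for all listed genes, and 50 of the 51 lay above that median. The highest were PCNA, the sliding clamp (213 ± 9.94 FPKM, SD, n = 3), MCM7, a helicase subunit (151 ± 5.92), CDK4 (97.8 ± 3.73) and RRM2, the regulated subunit of ribonucleotide reductase (94.1 ± 7.94). The lowest were E2F2 (2.45 ± 0.35 FPKM), CDC25A, the phosphatase that activates CDK2 (6.60 ± 0.47), and E2F3 (7.48 ± 0.50). Levels were graded: in the order from PCNA to E2F2, 39 of the 50 neighbouring pairs had overlapping ranges over the 3 control libraries. Among the breaks without overlap were those on both sides of MCM7, the one below RRM2, and those among the lowest genes, where E2F3, CDC25A and E2F2 did not overlap one another. Subunits of 1 complex were not at 1 level: MCM7 stood at 151 FPKM and MCM5 at 41.8 ± 3.03, and GINS2 at 61.2 ± 0.70 against 11.7 ± 0.15 for GINS1.

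**Figure D1:**
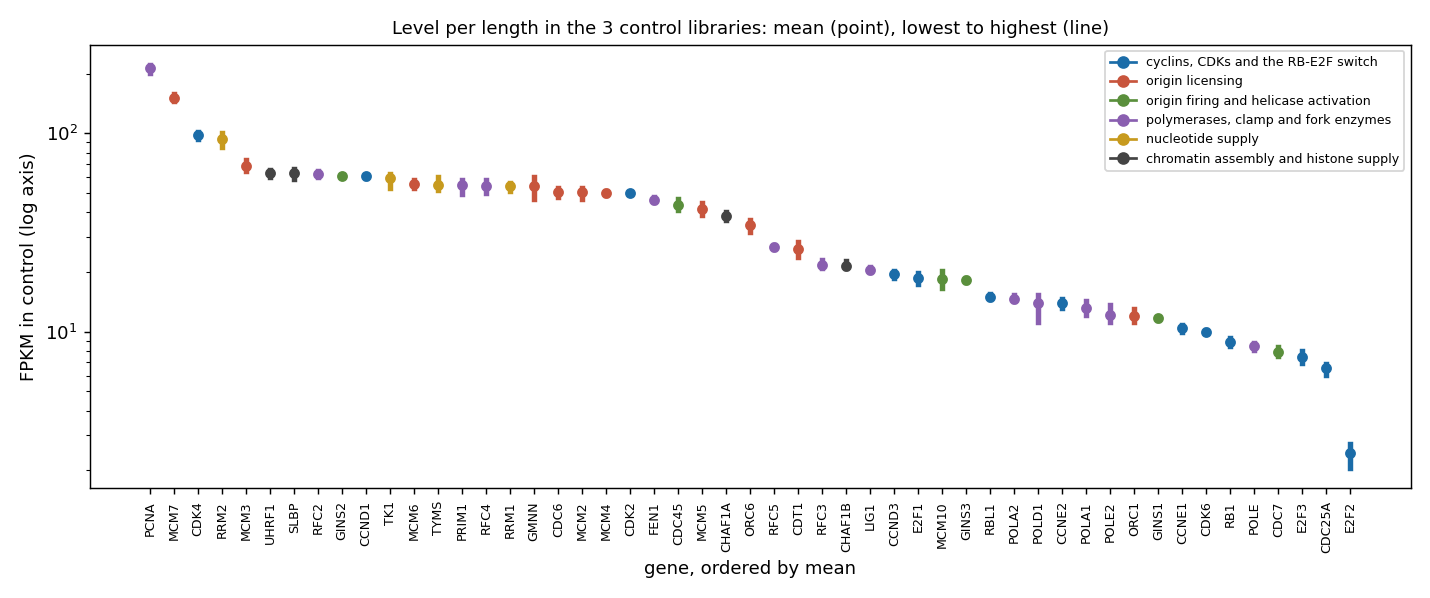
Level per length of each of the 51 genes in the control libraries, in FPKM on a log axis, ordered by the mean (point) with a line from the lowest to the highest of the 3 libraries and colour for the role. PCNA (213 FPKM) and MCM7 (151) stand above all others and E2F2 (2.45) below them.

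With sh-A, 8 members rose and 8 fell against the control by edgeR's quasi-likelihood test, out of 51. Among all 15592 genes tested, 26.7% were called, 14.4% as higher and 12.3% as lower, and the median log2 fold change was 0.06 over the members and 0.02 over all genes. The falls were led by CCND1, SLBP, CDK6, CCNE2 and CDC6 and the rises by RB1, CDK4, POLE, CDC25A and MCM7. The calls of CCND1, CCNE2, CDC6, CDK6, FEN1, RB1 and SLBP held under every alternative run, while those of the other 9 were lost under at least 1. The count of rises was 2, 3, 1 and 5 without control 1, control 2, control 3 and sh-A 4, 3 in a fit of these 2 groups only and 5 without the low-count filter. These counts are given without the share of all genes called in each fit, so they are not read as particular to the members. With the 3 set-apart libraries left out together (sh-A 3, sh-B 3 and sh-C 1), 10 rose and 16 fell, where 46% of all genes were called (23.8% higher and 22.2% lower). The lower epithelial and leukocyte marker sums and the sh-A-only transcripts given above accompany every sh-A value, and their part in it was not tested.

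With sh-B, 7 members rose and 12 fell, and 37.3% of the members were called by edgeR against 30.1% of all genes (15% higher and 15% lower). The falls were RBL1, RB1, GINS1, CCNE2, PCNA, E2F1, CDK2, ORC6, RFC2, MCM6, MCM7 and GINS3. The rises were FEN1, POLA2, RFC4, CCND1, MCM5, MCM2 and ORC1. The members' median log2 fold change was -0.00, as for all genes (0.00), and the spread ran from -0.68 (RBL1) to 0.57 (FEN1). All of these calls held under every alternative except those of ORC1 and ORC6. Leaving out the 3 set-apart libraries, 11 rose and 15 fell, where 47% of all genes were called (23.6% higher and 23.4% lower). The lower epithelial, leukocyte, fibroblast and endothelial marker sums given above accompany every sh-B value, and their part in it was not tested.

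With sh-C, 9 members rose and 2 fell, 21.6% of the members by edgeR against 17% of all genes (9.79% higher and 7.16% lower). The rises were TYMS, POLD1, MCM2, RRM2, FEN1, PCNA, CDK4, CCND3 and MCM7, and the falls were CCNE2 and CDK2. Most members lay slightly above the control, called or not: 43 of 51 fold changes were above 0, with a median of 0.18, whereas the median of all genes was 0.00. The share of all genes above 0 is not given here. Members also moved together between control libraries, with 39, 32 and 9 of the 51 above their mates in control 1, 2 and 3. The 51 fold changes are therefore not separate observations. The calls of MCM2 and TYMS held under every alternative, and the other 9 were lost under at least 1. The count of rises was 5, 2 and 2 without control 1, 2 and 3 and 2 and 3 without sh-C 2 and 3, and the 2 falls became 0 or 1 whichever library was left out. For these single-library fits the share of all genes called is not given, so the counts are not read as particular to the members. With the 3 set-apart libraries left out, 24 rose and 3 fell, where 42.8% of all genes were called (22.5% higher and 20.3% lower), and the median was again 0.18. In a fit of control and sh-C only, 19 rose and 2 fell, where 32.9% of all genes were called. Leukocyte, fibroblast and endothelial marker sums were below control with sh-C too, and their part in these values was not tested.

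**Figure D2:**
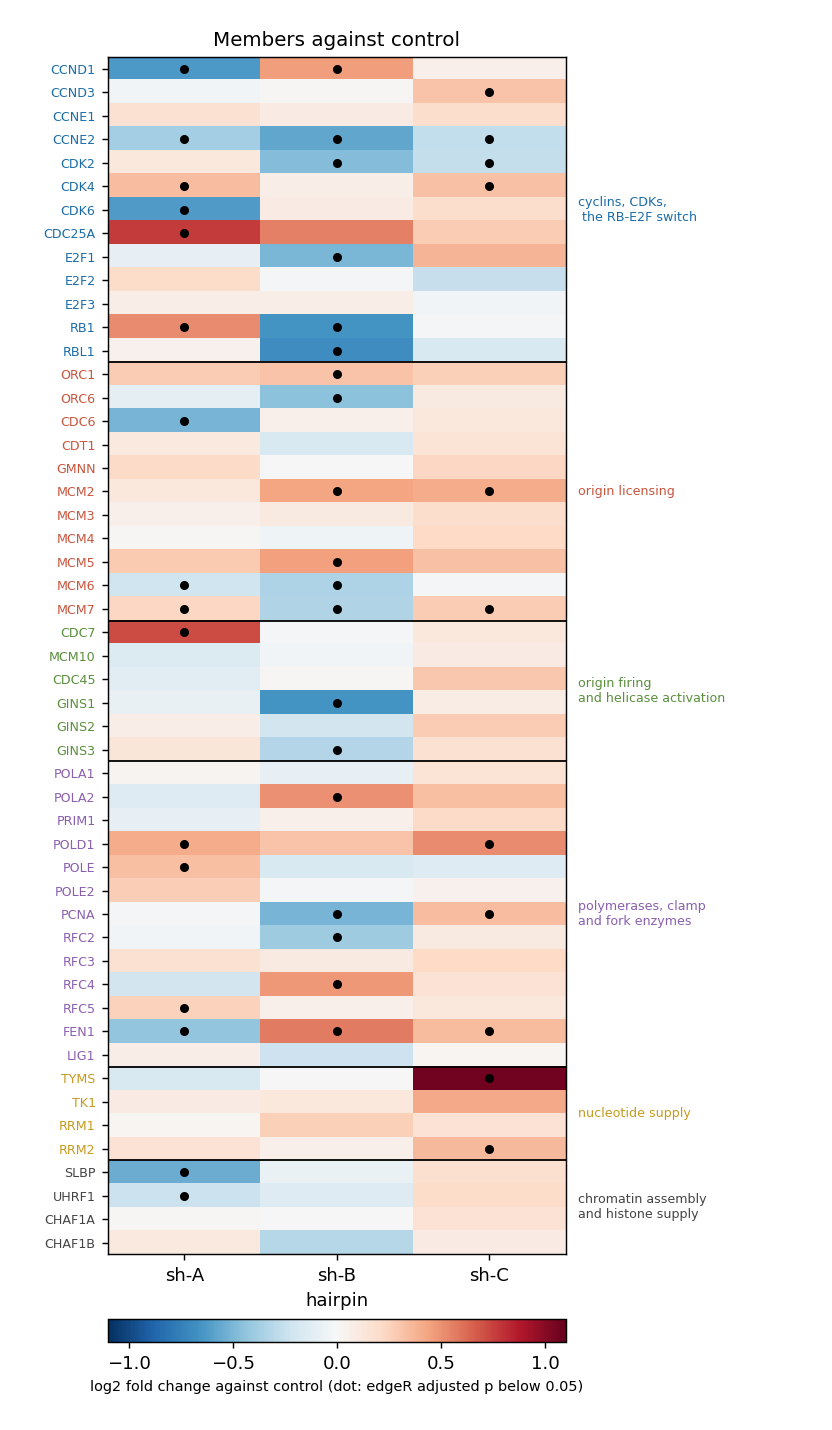
Log2 fold change of each of the 51 genes against the control (colour, blue lower and red higher) for sh-A, sh-B and sh-C, grouped by role, with a dot where edgeR's adjusted p was below 0.05. TYMS with sh-C (1.06) is the deepest red, and CCNE2 is blue and dotted in all 3 columns.

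Among the 13 cyclins, CDKs and RB-E2F genes, 3 rose and 3 fell with sh-A, 1 rose and 5 fell with sh-B, and 2 rose and 2 fell with sh-C. Over all genes, 14.4% were called higher and 12.3% lower with sh-A, 15% each with sh-B, and 9.79% and 7.16% with sh-C. No count by role, here or below, is read as a response particular to that role. CCND1 (NCBI gene ID 595), the D-type cyclin that couples growth signals to RB1, stood at 265, 260.3 and 258 CPM in control and 169, 164 and 174 with sh-A. With sh-B it reached 372, 350.4 and 355 CPM and with sh-C 261, 271 and 283. All sh-A libraries lay below and all sh-B libraries above the whole control range, and sh-C overlapped the control. On the log2 scale it changed by -0.63 (SE 0.07, edgeR adjusted p = 4.9e-05) with sh-A, 0.46 (SE 0.07, adjusted p = 0.00031) with sh-B and 0.06 (SE 0.06, adjusted p = 0.59) with sh-C. CCND3, another D-type cyclin, stood at 41.5, 37.95 and 40.95 CPM in control and 47.7, 49.9 and 52.03 with sh-C, with no overlap, and rose there by 0.31 (SE 0.08, adjusted p = 0.021). With sh-A (43, 37.99 and 36.7 CPM) and sh-B (40.9, 38.7 and 41.5 CPM) it overlapped the control, at -0.03 and 0.01, and did not pass the test.

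The kinases of the D-type cyclins did not move alike with sh-A. CDK6 (NCBI gene ID 1021) was at 117, 120.4 and 114 CPM in control and 74.99, 73.4 and 79.7 with sh-A, well apart, a change of -0.62 (SE 0.10, edgeR adjusted p = 0.00076). With sh-B it was at 108, 137 and 129 CPM and with sh-C at 130.1, 122 and 148, changes of 0.09 (SE 0.10, adjusted p = 0.54) with sh-B and 0.19 (SE 0.10, adjusted p = 0.2) with sh-C. CDK4, the other kinase of D-type cyclins, stood at 203, 199 and 185 CPM in control, 236, 258 and 248 with sh-A, 203, 203 and 209.7 with sh-B and 219.9, 266 and 246 with sh-C. It rose with sh-A (0.34 (SE 0.08, adjusted p = 0.0089)) and sh-C (0.32 (SE 0.08, adjusted p = 0.021)), and with sh-B, where the libraries lay just above the control range, it was at 0.07 (SE 0.08, adjusted p = 0.56).

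CCNE2 (NCBI gene ID 9134), an E-type cyclin, was the member below every control library with all 3 hairpins. Its level was 40.04, 38.5 and 35.4 CPM in control and 30.3, 28.4 and 29.3 with sh-A. With sh-B it was at 24.2, 26.2 and 26.5 CPM and with sh-C at 33.1, 30.01 and 31.4. The lowest values were those of sh-B, and no hairpin library reached the control range. It changed by -0.37 (SE 0.08, edgeR adjusted p = 0.0038) with sh-A, -0.57 (SE 0.08, adjusted p = 0.00024) with sh-B and -0.27 (SE 0.08, adjusted p = 0.032) with sh-C. CCNE1, the other E-type cyclin, did not follow: it was at 20, 21 and 21.3 CPM in control, 29.8, 19.96 and 20.03 with sh-A, 28.4, 18.3 and 19.6 with sh-B and 23.2, 26.04 and 21.9 with sh-C. The high values of sh-A and sh-B came from libraries sh-A 3 and sh-B 3, and the fold changes of 0.17, 0.09 and 0.19 did not pass (adjusted p = 0.54, 0.77 and 0.49). CDK2, the kinase partner of both, was at 116, 115 and 113 CPM in control, 130.3, 121 and 123 with sh-A, 83.2, 77.8 and 85.8 with sh-B and 92.1, 98.7 and 96.7 with sh-C. It fell with sh-B (-0.48 (SE 0.07, adjusted p = 0.00029)) and sh-C (-0.26 (SE 0.07, adjusted p = 0.022)), in libraries that all lay below the control, and was at 0.12 (SE 0.07, adjusted p = 0.21) with sh-A.

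The pocket proteins, which hold E2F factors back, were lower with sh-B. RB1 (NCBI gene ID 5925) stood at 42.9, 44.95 and 40.1 CPM in control, 69.98, 56.9 and 55.99 with sh-A, 28.7, 28.04 and 24.4 with sh-B and 43.2, 38.01 and 44.7 with sh-C. All sh-A libraries were above and all sh-B libraries below the control range. RB1 rose with sh-A (0.52 (SE 0.11, edgeR adjusted p = 0.0037); 0.40 without sh-A 3), fell with sh-B (-0.66 (SE 0.11, adjusted p = 0.00079)) and was at -0.02 (SE 0.11, adjusted p = 0.91) with sh-C. RBL1, or p107, was at 62.7, 67.2 and 62.2 CPM in control, 74.8, 61.6 and 62.4 with sh-A, 38.3, 42.2 and 39.5 with sh-B and 59.6, 53.1 and 58.7 with sh-C. The sh-B libraries held the lowest values by a wide gap, and the fold changes were -0.68 (SE 0.09, adjusted p = 0.00021) with sh-B, 0.05 (SE 0.09, adjusted p = 0.72) with sh-A and -0.17 (SE 0.09, adjusted p = 0.22) with sh-C.

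E2F1 (NCBI gene ID 1869), an activating E2F factor and itself an E2F target, was at 53.5, 47.6 and 50.4 CPM in control and 43.5, 50.9 and 48.3 with sh-A. It was at 32.3, 34.1 and 40.4 CPM with sh-B and 54.1, 70.8 and 71.2 with sh-C. All sh-B libraries were below the control range and all sh-C libraries above it, sh-C 1 only just. E2F1 fell with sh-B (-0.50 (SE 0.12, edgeR adjusted p = 0.0079)). Its values of 0.37 (SE 0.12, adjusted p = 0.051) with sh-C and -0.09 (SE 0.12, adjusted p = 0.63) with sh-A did not pass. With the 3 set-apart libraries left out the sh-C value was 0.49 (adjusted p = 0.00021). That fit was added after seeing the data and drops sh-C 1, the lowest sh-C library for E2F1. It called 42.8% of all genes with sh-C, against 17% in the main fit, so it adds no separate evidence for E2F1. E2F2 and E2F3, the other activating factors, were called against the control with no hairpin, at 0.20, -0.01 and -0.25 for E2F2 and 0.07, 0.07 and -0.03 for E2F3. CDC25A was at 25.5, 25.9 and 22.1 CPM in control, 63.8, 30.3 and 30.8 with sh-A, 37.2, 34.5 and 35.7 with sh-B and 28.8, 29.8 and 30.5 with sh-C. All hairpin libraries lay above the control, but with sh-A the rise of 0.77 (SE 0.23, adjusted p = 0.025) was carried by sh-A 3, and without that library it was 0.32 (adjusted p = 0.012). Its values with sh-B (0.55 (SE 0.23, adjusted p = 0.09)) and sh-C (0.28 (SE 0.23, adjusted p = 0.43)) did not pass. That SE rests on 1 spread fitted over all 12 libraries, sh-A 3 included. In the authors' deposited tables, described below, CDC25A passed with sh-B and sh-C and not with sh-A.

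**Figure D3:**
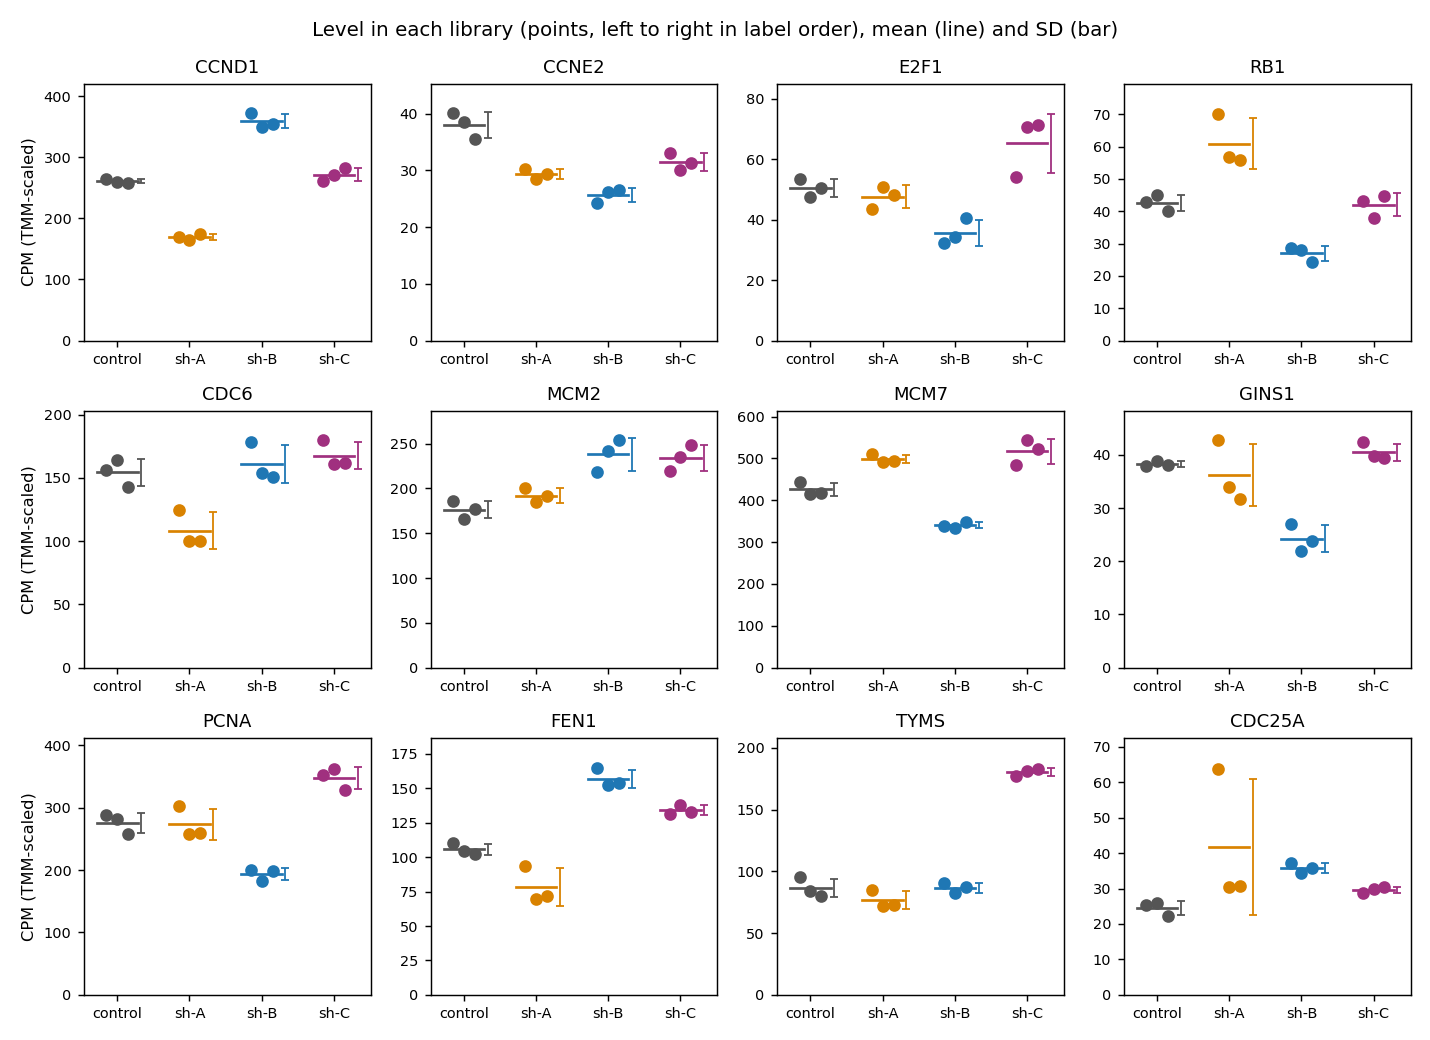
CPM of 12 members in each of the 12 libraries (points, in library order within a group), with the group mean (horizontal line) and SD (bar), each axis starting at 0. CCND1 is low with sh-A and high with sh-B, PCNA and MCM7 are low with sh-B, TYMS is high with sh-C, and sh-A 3 alone lifts CDC25A.

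Of the 11 licensing genes, 1 rose and 2 fell with sh-A, 3 rose and 3 fell with sh-B, and 2 rose and none fell with sh-C (edgeR). Beside them, 26.7%, 30.1% and 17% of all genes were called with sh-A, sh-B and sh-C. The 6 subunits of the MCM2-7 ring, which act as 1 complex, did not move together with sh-B: MCM2 and MCM5 rose, MCM6 and MCM7 fell, and MCM3 and MCM4 did not pass. MCM2 (NCBI gene ID 4171) was at 186, 166 and 177 CPM in control, 200.4, 185 and 191 with sh-A, 218, 241 and 254 with sh-B and 219, 235 and 248 with sh-C. The sh-B and sh-C libraries were all above the control range and did not separate from each other. The changes were 0.43 (SE 0.08, edgeR adjusted p = 0.002) with sh-B, 0.41 (SE 0.08, adjusted p = 0.0082) with sh-C and 0.12 (SE 0.08, adjusted p = 0.3) with sh-A. MCM7 (NCBI gene ID 4176) was at 444, 415 and 418 CPM in control, 510.1, 492 and 495 with sh-A, 338, 334 and 348 with sh-B and 483, 544 and 523 with sh-C. It lay below the control range in all sh-B libraries and above it in all sh-A and sh-C libraries. MCM7 fell with sh-B (-0.33 (SE 0.07, adjusted p = 0.0039)) and rose with sh-A (0.23 (SE 0.07, adjusted p = 0.028)) and sh-C (0.28 (SE 0.07, adjusted p = 0.019)).

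Of the other ring subunits, MCM6 was at 207, 222 and 199 CPM in control, 191, 172 and 175 with sh-A, 155, 169 and 170.2 with sh-B and 209, 208 and 202 with sh-C, below the control in all sh-A and sh-B libraries. It changed by -0.22 (SE 0.07, adjusted p = 0.043) with sh-A and -0.34 (SE 0.07, adjusted p = 0.0045) with sh-B and was at -0.02 (SE 0.07, adjusted p = 0.88) with sh-C. MCM5 rose with sh-B (0.45 (SE 0.10, edgeR adjusted p = 0.0062)) from 115, 100.1 and 105 CPM in control to 137, 146 and 155, and was at 0.29 (SE 0.10, adjusted p = 0.053) with sh-A and 0.32 (SE 0.10, adjusted p = 0.051) with sh-C, both just short of the threshold. MCM3 and MCM4 passed with no hairpin, at 0.06, 0.10 and 0.19 for MCM3 and 0.01, -0.05 and 0.22 for MCM4, although all sh-C libraries of MCM4 lay above the control range.

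CDC6 (NCBI gene ID 990), the loader that brings the ring to the origin, was at 156, 164 and 143 CPM in control, 125, 100.01 and 100.2 with sh-A, 178, 154 and 151 with sh-B and 180.2, 161 and 162 with sh-C. All sh-A libraries stood below the control range, while the sh-B and sh-C libraries overlapped it, with sh-B 3 and sh-C 1 above it. CDC6 fell with sh-A (-0.51 (SE 0.11, edgeR adjusted p = 0.0041)) and was at 0.06 (SE 0.11, adjusted p = 0.71) with sh-B and 0.12 (SE 0.11, adjusted p = 0.47) with sh-C. CDT1, its partner in loading, was at 71.5, 66.01 and 76.3 CPM in control, 70.8, 80.4 and 80.2 with sh-A, 60.98, 63.9 and 65.9 with sh-B and 64.5, 87.3 and 85.6 with sh-C. Its values of 0.11 (SE 0.11, adjusted p = 0.49) with sh-A, -0.17 (SE 0.11, adjusted p = 0.3) with sh-B and 0.15 (SE 0.11, adjusted p = 0.37) with sh-C did not pass. GMNN, the inhibitor of CDT1, was at 0.21, -0.00 and 0.23 and did not pass either. Of the origin recognition complex, ORC1 was at 0.31 (SE 0.11, adjusted p = 0.044) with sh-B and ORC6 at -0.45 (SE 0.13, adjusted p = 0.024), opposite calls within 1 complex, and each was lost without single libraries.

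Of the 6 firing factors, CDC7 alone rose with sh-A, GINS1 and GINS3 fell with sh-B, and none was called with sh-C. The shares of all genes called were 26.7% with sh-A, 30.1% with sh-B and 17% with sh-C. GINS1 (NCBI gene ID 9837), 1 of the 4 subunits of the GINS complex, was at 37.8, 38.9 and 38.05 CPM in control, 42.8, 34.05 and 31.7 with sh-A, 26.97, 21.9 and 23.8 with sh-B and 42.4, 39.8 and 39.4 with sh-C. The sh-B libraries were far below the control range and the sh-A libraries on both sides of it. GINS1 changed by -0.66 (SE 0.11, edgeR adjusted p = 0.001) with sh-B, and GINS3 by -0.32 (SE 0.07, adjusted p = 0.0059) (43.2, 42.8 and 40.1 CPM in control, 35.6, 32.4 and 32.7 with sh-B). GINS2 lay below every control library with sh-B and above every one with sh-C, at -0.20 (SE 0.10, adjusted p = 0.15) and at 0.28 (SE 0.10, adjusted p = 0.08), without passing. CDC7, the kinase that fires origins, was at 25.1, 27.5 and 24.02 CPM in control and 63.2, 32.3 and 30.5 with sh-A. Its change of 0.72 (SE 0.22, adjusted p = 0.03) with sh-A was carried by sh-A 3 and was 0.30 (adjusted p = 0.033) without it, and it was at -0.02 and 0.12 with sh-B and sh-C. MCM10 and CDC45 passed with no hairpin, at -0.15, -0.03 and 0.09 and at -0.12, 0.01 and 0.30.

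Of the 13 polymerases, clamp and fork enzymes, 3 rose and 1 fell with sh-A, 3 rose and 2 fell with sh-B, and 3 rose and none fell with sh-C (edgeR). These stand beside 26.7%, 30.1% and 17% of all genes called with sh-A, sh-B and sh-C. PCNA (NCBI gene ID 5111) was at 288, 282 and 258 CPM in control, 302, 257 and 259.7 with sh-A, 201, 183 and 199 with sh-B and 352, 363 and 329 with sh-C. All sh-B libraries were below and all sh-C libraries above the control range, and sh-A overlapped it. The changes were -0.51 (SE 0.09, edgeR adjusted p = 0.00094) with sh-B, 0.34 (SE 0.09, adjusted p = 0.021) with sh-C and -0.01 (SE 0.09, adjusted p = 0.92) with sh-A. FEN1 (NCBI gene ID 2237), the nuclease that trims Okazaki fragments, was at 110.3, 105 and 102 CPM in control, 93.9, 69.4 and 71.9 with sh-A, 165, 152 and 154 with sh-B and 132, 138 and 133 with sh-C. No hairpin library of FEN1 fell inside the control range: sh-A was below it and sh-B and sh-C above. It fell with sh-A (-0.43 (SE 0.10, adjusted p = 0.0089)) and rose with sh-B (0.57 (SE 0.10, adjusted p = 0.0014)) and sh-C (0.35 (SE 0.10, adjusted p = 0.038)). LIG1, the ligase that seals those fragments, passed with no hairpin (0.07, -0.23 and 0.02).

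The subunits of RFC, the clamp loader, split with sh-B. RFC2 went from 109, 103 and 104 CPM in control to 84.1, 80.2 and 77.3 with sh-B, all below, a change of -0.39 (SE 0.07, edgeR adjusted p = 0.0012). RFC4 went from 77.5, 82.96 and 69.3 CPM to 121, 99.99 and 99.5, all above, a change of 0.48 (SE 0.10, adjusted p = 0.0033). RFC5 rose with sh-A (0.25 (SE 0.08, adjusted p = 0.039); 0.17, adjusted p = 0.11 without sh-A 3), and RFC3 passed with no hairpin. Of the catalytic polymerase subunits, POLE, of the leading strand, rose with sh-A (0.33 (SE 0.09, adjusted p = 0.022); 67.8, 64.9 and 67.9 CPM in control, 87.9, 81.9 and 81.97 with sh-A). POLD1, of the lagging strand, was at 53.02, 38.9 and 52.4 CPM in control, 57.9, 65.6 and 68.2 with sh-A and 57.4, 75.8 and 74.6 with sh-C, with control 2 the lowest library. It rose with sh-A (0.41 (SE 0.14, adjusted p = 0.05)) and sh-C (0.52 (SE 0.14, adjusted p = 0.026)), and without control 2 the adjusted p was 0.2 with sh-A and 0.1 with sh-C. In the priming polymerase, POLA2 rose with sh-B (0.50 (SE 0.12, adjusted p = 0.0089); 38.2, 36.02 and 35.2 CPM in control, 48.6, 52.8 and 53.1 with sh-B), while POLA1 and PRIM1 did not pass with any hairpin, nor did POLE2.

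The largest change of any member against the control was in nucleotide supply. TYMS (NCBI gene ID 7298), which makes thymidylate, was at 95.1, 84.3 and 80.4 CPM in control and 85.2, 72.2 and 73 with sh-A. It was at 90.3, 82.2 and 86.97 CPM with sh-B and 177, 182 and 183 with sh-C. The sh-C libraries stood far above all 9 others, which overlapped. TYMS rose with sh-C by 1.06 (SE 0.09, edgeR adjusted p = 8.8e-05) and was at -0.17 (SE 0.09, adjusted p = 0.17) with sh-A and -0.002 (adjusted p = 1) with sh-B. ENOSF1, which lies on the other strand and shares 58.2% of the TYMS exon bases (967 bases in GENCODE v29 on GRCh38), changed in the same comparison by 0.83 (SE 0.07, adjusted p = 8.8e-05), from 90.7, 88.8 and 87.4 to 149, 165 and 159.8 CPM. With sh-A it changed by -0.73 (SE 0.07, adjusted p = 2.2e-05), and these libraries do not mark the strand, so how the fragments of the shared bases divide between TYMS and ENOSF1 is uncertain.

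The other nucleotide genes moved less. RRM2 was at 318, 333 and 275 CPM in control, 357, 343 and 335 with sh-A, 369.5, 305 and 292 with sh-B and 367, 412 and 409 with sh-C. It rose with sh-C (0.36 (SE 0.10, edgeR adjusted p = 0.032)), and its values of 0.16 (SE 0.10, adjusted p = 0.27) with sh-A and 0.06 (SE 0.10, adjusted p = 0.69) with sh-B did not pass. TK1, the thymidine kinase of S phase, and RRM1, the large reductase subunit, were above every control library with sh-C, TK1 at 0.42 (SE 0.15, adjusted p = 0.076) and RRM1 at 0.16 (SE 0.11, adjusted p = 0.32), without passing. None of the 4 rose or fell with sh-A or sh-B, where 26.7% and 30.1% of all genes were called.

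Of the 4 chromatin assembly genes, 2 fell with sh-A and none was called with sh-B or sh-C. Among all genes, 26.7% were called with sh-A, 30.1% with sh-B and 17% with sh-C. SLBP (NCBI gene ID 7884), which binds the stem-loop of histone messages, was at 111, 115 and 99.6 CPM in control, 79.02, 73.01 and 70.7 with sh-A, 103, 103 and 103 with sh-B and 122, 126 and 121 with sh-C. The sh-A libraries were far below the control range and the sh-C libraries above it. SLBP changed by -0.55 (SE 0.07, edgeR adjusted p = 0.00029) with sh-A, -0.07 (SE 0.07, adjusted p = 0.51) with sh-B and 0.18 (SE 0.07, adjusted p = 0.11) with sh-C. UHRF1, which keeps DNA methylation through replication, was at 257, 238 and 246 CPM in control and 231, 196 and 202 with sh-A and fell there (-0.24 (SE 0.08, adjusted p = 0.042)). CHAF1A and CHAF1B, subunits of the histone chaperone CAF-1, passed with no hairpin. CHAF1B was at 77.99, 43.04 and 38.4 CPM with sh-A, where sh-A 3 held the high value, against 51.7, 48.4 and 47.1 in control.

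Some members share reads with other genes. In GENCODE v29 the exons of CDK4 overlap those of TSPAN31 on the other strand over 51.9% of their bases, and those of CCNE2 overlap INTS8 over 47.5%. INTS8 was at 0.10, -0.09 and 0.14 with sh-A, sh-B and sh-C and passed with none (edgeR adjusted p = 0.4, 0.45 and 0.27). TSPAN31 fell with sh-B (-0.43 (SE 0.12, adjusted p = 0.016)) and sh-C (-0.42 (SE 0.12, adjusted p = 0.032)), the direction opposite to that of CDK4 with sh-C. MCM2 shares 30.7% of its exon bases with an antisense transcript, and POLA2 53.7% and RRM2 27.9% with a read-through or other model on the same strand. Annotated pseudogenes bear the names of CCND3, CDK4, E2F3, PCNA, RFC3, RFC5, FEN1, TYMS and RRM2. For all of these the split of reads by the authors' counting is uncertain.

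Library sh-A 3 stood apart in these genes as well. Set against the mean of its 2 mates, 44 of the 51 members were higher in sh-A 3, with a median log2 difference of 0.22, while 51.4% of all genes were higher. In 8 members the difference passed 0.5: CDC25A (1.06), CDC7 (1.01), CHAF1B (0.94), MCM10 (0.78), GMNN (0.63), CCNE1 (0.57), POLA1 (0.54) and MCM3 (0.53). Over all genes the root mean square distance of sh-A 3 from its mates was 0.655. The share of all genes beyond 0.5 was not counted, so these 8 are not read as more than that share. The 43 other replication genes had a median difference of 0.25 in sh-A 3, and the 41 mitosis genes 0.15. In sh-B 3 the members' median was 0.08, with CCNE1 (0.58) and GMNN (0.52) above and E2F2 (-0.60) below, and in sh-C 1 it was -0.01 with no member beyond 0.5. In control libraries the medians were 0.07, 0.03 and -0.09, and no member passed 0.5. Above their mates there were 39, 32 and 9 of the 51 members, beside 49.8%, 50.4% and 51.9% of all genes. A one-sided count of members is therefore not particular to sh-A 3.

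**Figure D4:**
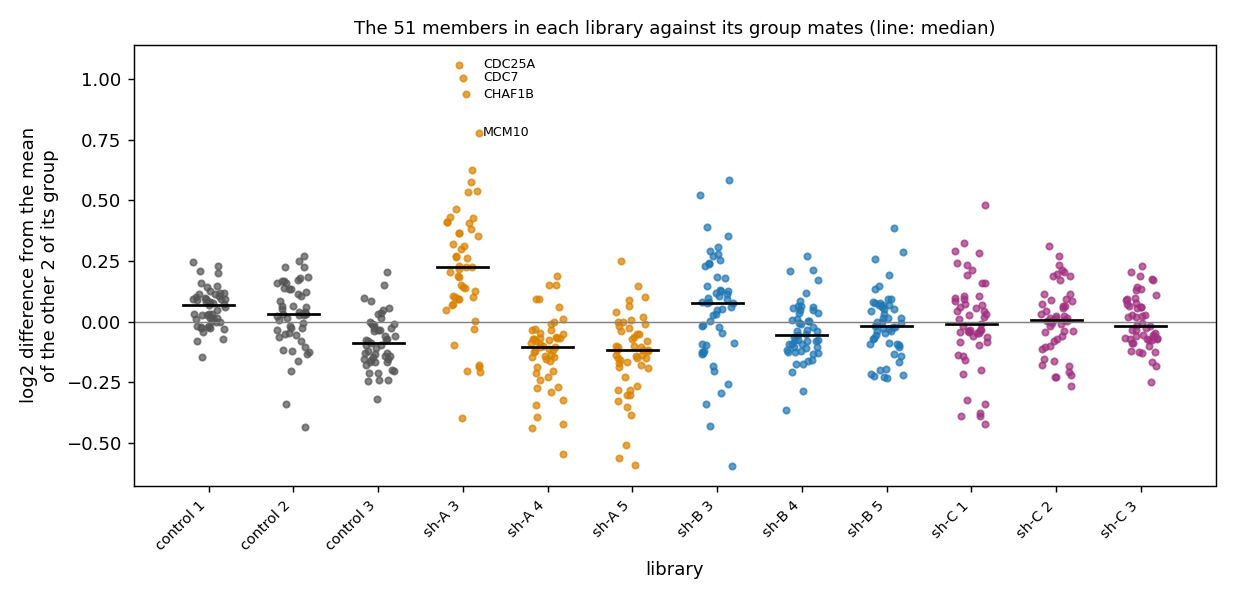
Log2 difference of each of the 51 genes in a library from the mean of the other 2 libraries of its group (points, with a line at the median). The points of sh-A 3 lie mostly above 0, with CDC25A, CDC7, CHAF1B and MCM10 at the top.

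The members with and without an E2F-type word were set side by side, as a description. With sh-B, the 22 members with a word had a median log2 fold change of -0.13, with 2 called higher and 7 lower (9.09% and 31.8%), and the 20 without had 0.06, with 2 higher and 2 lower (10% each). The 7 were E2F1, RBL1, MCM6, MCM7, GINS1, GINS3 and PCNA, and the 2 higher with a word were MCM2 and POLA2. The 2 lower without a word were RFC2 and ORC6. Members without a matched window are in neither group. Of these, CCND1, MCM5 and ORC1 were called higher with sh-B and CCNE2, CDK2 and RB1 lower. The others, CCND3, MCM4 and UHRF1, were not called with sh-B. With sh-C the medians were 0.16 (4 higher, none lower) and 0.18 (4 higher, none lower), and with sh-A they were 0.07 (3 higher, 2 lower) and 0.02 (4 higher, 3 lower). Among the tested genes as a whole, the 569 with a word and the 10035 without had the same median of 0.01 with sh-B. Of the former 16.3% were called higher and 16% lower with sh-B, 12.5% and 4.92% with sh-C and 12.7% and 11.1% with sh-A. Of the latter 15.6% were called higher and 14.8% lower with sh-B, 10.8% and 7% with sh-C and 15% and 11.8% with sh-A. No test of the difference was made.

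The hairpins were then set against each other. Between sh-B and sh-C, the 2 named in the design text, 2 members were higher and 19 lower with sh-B, where 27.9% of all genes were called, 13% as higher and 14.9% as lower with sh-B. The members' median was -0.24, and -0.01 over all genes. TYMS differed most (-1.06 (SE 0.09, edgeR adjusted p = 8.5e-06)), followed by E2F1 (-0.88 (SE 0.12, adjusted p = 0.00026)), PCNA (-0.84 (SE 0.09, adjusted p = 3.7e-05)), GINS1 (-0.74), RB1 (-0.63) and MCM7 (-0.60 (SE 0.07, adjusted p = 7.8e-05)). In each of these the sh-B and sh-C libraries did not overlap. CCND1 (0.40 (SE 0.06, adjusted p = 0.00076)) and RFC4 (0.32 (SE 0.10, adjusted p = 0.031)) were higher with sh-B. CCNE2 (-0.30 (SE 0.08, adjusted p = 0.014)) and RRM2 (-0.30 (SE 0.10, adjusted p = 0.047)) were lower with sh-B. CDT1 (-0.32 (SE 0.11, adjusted p = 0.051)), MCM2 (0.02 (SE 0.08, adjusted p = 0.87)), CDC6 (-0.06 (SE 0.11, adjusted p = 0.73)) and CCNE1 (-0.11 (SE 0.18, adjusted p = 0.7)) did not pass. The intervals of the difference were narrow for MCM2 (95% interval -0.15 to 0.20) and wide for CCNE1 (95% interval -0.50 to 0.28). With the 3 set-apart libraries left out, 5 were higher and 28 lower, where 46.5% of all genes were called (21.5% higher and 24.9% lower).

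**Figure D5:**
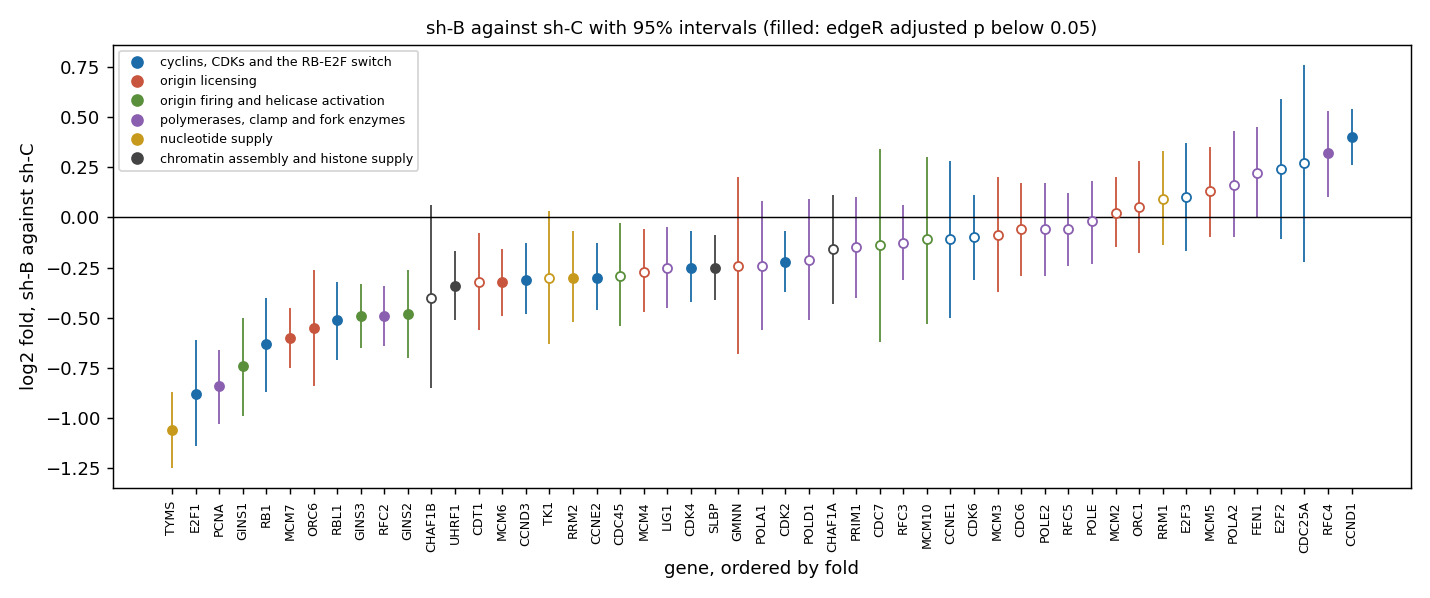
Log2 fold of sh-B against sh-C for each of the 51 genes in order of size, with 95% intervals, coloured by role and filled where edgeR's adjusted p was below 0.05. Of the filled points, 19 lie below 0, from TYMS (-1.06) on, and 2 above it, RFC4 and CCND1.

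Between sh-A and sh-B, 15 members were higher and 8 lower with sh-A, 45.1% of them, where 47.5% of all genes were called (25.3% higher and 22.2% lower). CCND1 (-1.09 (SE 0.07, edgeR adjusted p = 2.1e-07)) and FEN1 (-1.0 (SE 0.10, adjusted p = 1e-05)) were lower with sh-A. RB1 (1.17 (SE 0.11, adjusted p = 4.1e-06)) and CDK2 (0.60 (SE 0.07, adjusted p = 1.9e-05)) were higher with sh-A. CDC6 (-0.57 (SE 0.11, adjusted p = 0.00084)) and MCM2 (-0.31 (SE 0.08, adjusted p = 0.0078)) were also lower with sh-A, and PCNA (0.49 (SE 0.09, adjusted p = 0.0005)) and E2F1 (0.42 (SE 0.12, adjusted p = 0.013)) higher. CDT1 (0.28 (SE 0.11, adjusted p = 0.056)) and ORC6 (0.34 (SE 0.13, adjusted p = 0.052)) did not pass in the unpaired fit. In a fit with same-numbered libraries as a replicate block they did, at 0.27 (adjusted p = 0.019) and 0.33 (adjusted p = 0.013), although no label says that a number pairs libraries. CCNE2 (0.19 (SE 0.08, adjusted p = 0.057)), TYMS (-0.17 (SE 0.09, adjusted p = 0.13)), RRM2 (0.10 (SE 0.10, adjusted p = 0.46)) and CCNE1 (0.08 (SE 0.18, adjusted p = 0.75)) did not pass in either fit. The falls numbered 14 without sh-A 3, a count given without the share of all genes called in that fit. Without the 3 set-apart libraries 17 were higher and 15 lower, where 56.9% of all genes were called (29.4% higher and 27.4% lower).

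Between sh-A and sh-C, 4 members were higher and 14 lower with sh-A, 35.3% of them, the same as the 35.3% of all genes called (17.9% higher and 17.4% lower). TYMS (-1.23 (SE 0.09, edgeR adjusted p = 2.3e-06)), CCND1 (-0.68 (SE 0.07, adjusted p = 1.9e-05)), SLBP (-0.73 (SE 0.07, adjusted p = 2.9e-05)) and CDK6 (-0.81 (SE 0.10, adjusted p = 9.6e-05)) were lower with sh-A. CDC6 (-0.63 (SE 0.11, adjusted p = 0.00084)), E2F1 (-0.46 (SE 0.12, adjusted p = 0.01)), PCNA (-0.35 (SE 0.09, adjusted p = 0.0074)) and MCM2 (-0.29 (SE 0.08, adjusted p = 0.017)) were lower too. The 4 higher with sh-A were POLE, RB1, CDK2 and E2F2, at 0.47, 0.54, 0.38 and 0.44. CCNE2 (-0.10 (SE 0.08, adjusted p = 0.33)), RRM2 (-0.20 (SE 0.10, adjusted p = 0.15)), CDT1 (-0.04 (SE 0.11, adjusted p = 0.82)) and CCNE1 (-0.03 (SE 0.18, adjusted p = 0.92)) did not pass. The falls numbered 26 without sh-A 3, a count given without the share of all genes called in that fit and so not read as particular to the members. Without the 3 set-apart libraries 4 were higher and 31 lower, where 52.2% of all genes were called (25.2% higher and 27% lower).

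Other genes of the pathway were counted from lists of regulators, replication proteins and mitotic proteins. Of 29 other G1/S regulators, 4 rose and 4 fell with sh-A, 5 and 4 with sh-B, and 5 and 3 with sh-C (edgeR). These calls make up 27.6%, 31% and 27.6% of the list, beside 26.7%, 30.1% and 17% of all genes. With sh-A, CDKN2B, an inhibitor of CDK4 and CDK6 (-1.16 (SE 0.10, edgeR adjusted p = 8.5e-06)), CDK7, the CDK-activating kinase (-1.21 (SE 0.14, adjusted p = 0.00011)), and E2F8, a repressing E2F factor (-0.39 (SE 0.09, adjusted p = 0.0095)), fell. E2F4 (0.45 (SE 0.10, adjusted p = 0.006)) and SKP2, which marks CDKN1B for destruction (0.40 (SE 0.11, adjusted p = 0.017)), rose. CCND2, another D-type cyclin, had no count outside sh-A, where it was at 8.30, 2.91 and 2.24 CPM. It is counted among the 4 that rose. It meets the limits of the 118 transcripts found almost only with sh-A, below 0.3 CPM elsewhere and a mean above 3 CPM with sh-A. Like them it was highest in sh-A 3, and the source of these transcripts was not tested. With sh-B, E2F5, a repressing factor (1.11 (SE 0.11, adjusted p = 3e-05)), DDB1 (0.57 (SE 0.08, adjusted p = 0.00032)) and CCNH, the cyclin of CDK7 (0.30 (SE 0.10, adjusted p = 0.034)), rose. CKS1B (-0.54 (SE 0.09, adjusted p = 0.0008)), RBL2, the pocket protein p130 (-0.76 (SE 0.13, adjusted p = 0.00083)), and MYBL2 (-0.47 (SE 0.08, adjusted p = 0.0012)) fell.

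With sh-C, TFDP1, the DNA-binding partner of E2F factors (0.35 (SE 0.08, edgeR adjusted p = 0.017)), E2F4 (0.42 (SE 0.10, adjusted p = 0.018)) and DDB1 (0.33 (SE 0.08, adjusted p = 0.018)) rose. The CDK inhibitor CDKN1B, or p27 (-0.48 (SE 0.11, adjusted p = 0.013)), E2F8 (-0.41 (SE 0.09, adjusted p = 0.015)) and RBL2 (-0.40 (SE 0.13, adjusted p = 0.048)) fell. CDKN1B stood at 47.05, 46.7 and 46.6 CPM in control and 34.7, 33.6 and 31.9 with sh-C, with no overlap. It fell with sh-B as well (-0.41 (SE 0.11, adjusted p = 0.014)), and sh-B against sh-C was at 0.07 (SE 0.11, adjusted p = 0.68). With sh-A it was at 0.26 (SE 0.11, adjusted p = 0.1) and did not pass.

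Of 43 other replication genes, 6 rose and 3 fell with sh-A, 8 and 5 with sh-B, and 8 and none with sh-C, with medians of 0.02, 0.03 and 0.09. With sh-A 20.9% of the list were called, with sh-B 30.2% and with sh-C 18.6%, beside 26.7%, 30.1% and 17% of all genes. RPA1 (0.28 (SE 0.06, edgeR adjusted p = 0.0066)) and RPA2 (0.39 (SE 0.09, adjusted p = 0.0096)), which coat single-stranded DNA, and the histone chaperone ASF1A (0.47 (SE 0.13, adjusted p = 0.02)) rose with sh-A. DBF4B, a partner of CDC7 (-0.58 (SE 0.11, adjusted p = 0.0027)), RBBP4, a subunit of CAF-1 (-0.59 (SE 0.12, adjusted p = 0.0029)), and DNMT1, the maintenance methyltransferase (-0.50 (SE 0.13, adjusted p = 0.016)), fell. With sh-B, MCMBP, which binds MCM subunits (0.48 (SE 0.08, adjusted p = 0.0007)), POLE3 (0.65 (SE 0.11, adjusted p = 0.00072)) and ORC4 (0.42 (SE 0.08, adjusted p = 0.0023)) rose. MTBP (-0.71 (SE 0.08, adjusted p = 9.1e-05)), CHTF18, of an alternative clamp loader (-0.96 (SE 0.13, adjusted p = 0.00026)), and TIMELESS, of the fork protection complex (-0.49 (SE 0.08, adjusted p = 0.00067)), fell. With sh-C, RNASEH2A (0.38 (SE 0.07, adjusted p = 0.0072)), DUT, which makes the precursor of thymidylate (0.32 (SE 0.08, adjusted p = 0.018)), and MCMBP (0.31 (SE 0.08, adjusted p = 0.02)) rose.

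Of 41 mitosis genes, 2 rose and 11 fell with sh-A, 4 and 11 with sh-B, and 7 and 1 with sh-C, with medians of -0.14, -0.13 and 0.06. The falls with sh-A and sh-B stand beside 12.3% and 15% of all genes called lower, and the rises with sh-C beside 9.79% called higher. In all, 31.7%, 36.6% and 19.5% of the list were called. ANLN, of the cleavage furrow (-1.12 (SE 0.09, edgeR adjusted p = 7.8e-06)), TOP2A (-0.54 (SE 0.10, adjusted p = 0.0024)) and the kinase AURKA (-0.36 (SE 0.08, adjusted p = 0.0042)) fell with sh-A, and ESPL1 (0.33 (SE 0.10, adjusted p = 0.032)) and AURKB (0.22 (SE 0.08, adjusted p = 0.045)) rose. NUF2, of the kinetochore (-0.98 (SE 0.14, adjusted p = 0.00034)), CDC25B (-0.68 (SE 0.10, adjusted p = 0.00039)) and AURKA (-0.44 (SE 0.08, adjusted p = 0.0011)) fell with sh-B, and ECT2 (0.71 (SE 0.07, adjusted p = 2.1e-05)), BUB3 (0.45 (SE 0.08, adjusted p = 0.001)) and CDK1 (0.40 (SE 0.07, adjusted p = 0.0018)) rose. CDC20 (0.55 (SE 0.09, adjusted p = 0.0038)), BIRC5 (0.42 (SE 0.07, adjusted p = 0.0047)) and AURKA (0.35 (SE 0.08, adjusted p = 0.011)) rose with sh-C, and NUSAP1 (-0.28 (SE 0.08, adjusted p = 0.038)) fell. Without the 3 set-apart libraries, 5 mitosis genes rose and 21 fell with sh-A, 6 and 24 with sh-B, and 14 and 8 with sh-C. Calls were more frequent over all genes in that setting too. They were 23.8% higher and 22.2% lower with sh-A, 23.6% and 23.4% with sh-B, and 22.5% and 20.3% with sh-C.

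The authors' deposited tables give a probability, PPEE, that a gene is equally expressed. Below 0.05 they hold 11 members for sh-A (5 higher, 6 lower), 23 for sh-B (9 higher, 14 lower) and 18 for sh-C (16 higher, 2 lower). Over all genes in the authors' deposited tables the shares below that value were 22.1% for sh-A (10.7% higher and 11.4% lower), 28.4% for sh-B (14.3% higher and 14.1% lower) and 23.8% for sh-C (13.5% higher and 10.2% lower). Of these members, 10, 19 and 10 were also called by edgeR. With sh-C, CDC25A, MCM4, CDC45, GINS2, POLA2, RFC3, SLBP and UHRF1 passed in the authors' deposited table and not by edgeR, all higher. With sh-B these were CDC25A and RRM1, higher, and LIG1 and CHAF1B, lower. With sh-A it was MCM5, higher. By edgeR alone 6, 0 and 1 members were called with sh-A, sh-B and sh-C. The log2 ratios of the members in the authors' deposited tables differed from the fitted ones by at most 0.01.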

How the data were processed

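The 12 libraries were made from poly-A selected RNA, per the labels' protocols. Each library's deposited file lists genes with the authors' expected count and FPKM, and Bowtie2, HISAT, RSEM and build hg19 are named in the submitters' processing notes, with versions and settings not given in the sources used here. The log2 ratios, PPEE probabilities and group signal means come from the authors' deposited comparison tables. No column of sample values was left unmapped (0), and genes are given by NCBI gene ID without hg19 coordinates, since no genome of that build was used here.

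Expected counts were rounded and tested with edgeR 4.0.16 (R 4.3.3): default low-count filter (minimum count 10, 15592 genes), trimmed-mean scaling, 1 mean per group over all 12 libraries, quasi-likelihood F-test and Benjamini-Hochberg adjustment over all genes, called below 0.05. The SE was obtained as the size of the log2 change over the root of F, and CPM is edgeR's scaled counts-per-1e6 value. The script was tested on simulated counts. All 51 members may be named. In each comparison with control, the 6 called members with the smallest adjusted p, and 10 set genes (E2F1, CCND1, CCNE1, CCNE2, CDC6, CDT1, MCM2, PCNA, RRM2 and TYMS), are given with all libraries. Between hairpins the 4 called members with the smallest adjusted p are named, and from other lists up to 3 per direction. Members and lists were chosen with earlier results of these data known. Same-numbered sh-A and sh-B libraries deviated together to a small degree (r = 0.298, 0.12 and 0.219 for numbers 3, 4 and 5). No label says that a number pairs libraries, so the block by number is an alternative and not the main fit. Alternatives were size factors, no filter, DESeq2 1.42.0, 2 groups only, a replicate block, each library left out and, added after seeing the data, the 3 set-apart libraries left out.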

Additional observations from a re-analysis of the deposited data

Results flagged for a closer look

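In 7 contrasts between hairpins, a member that had been called in opposite directions against the shared control was also called in the direct comparison of the hairpins. CCND1 was 1 such gene, with a log2 fold of -1.09 (SE 0.07, edgeR adjusted p = 2.1e-07) for sh-A against sh-B. RB1 went the other way in the same pair, at 1.17 (SE 0.11, adjusted p = 4.1e-06). MCM7 stood at 0.55 (SE 0.07, adjusted p = 4.3e-05) for sh-A against sh-B and -0.60 (SE 0.07, adjusted p = 7.8e-05) for sh-B against sh-C. FEN1 stood at -1.0 (SE 0.10, adjusted p = 1e-05) for sh-A against sh-B and -0.78 (SE 0.10, adjusted p = 0.00018) for sh-A against sh-C. PCNA stood at -0.84 (SE 0.09, adjusted p = 3.7e-05) for sh-B against sh-C. In all 7 the libraries of the hairpins did not overlap, with 3 libraries on each side. The calls against the control share the same 3 control libraries. These contrasts were picked by their opposite calls. In the same fit, the direct log2 fold is close to the difference between the folds against the control. A direct call and libraries without overlap were therefore nearly given by the choice, and add no independent evidence. The share of all genes that meet the same rule was not counted, so the 7 are not read as particular to the members.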

How the results depend on the processing

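No called member reversed under any alternative run. Calls held throughout for 7 of 16 members with sh-A, 17 of 19 with sh-B, 2 of 11 with sh-C, 15 of 21 for sh-B against sh-C, 17 of 23 for sh-A against sh-B and 13 of 18 for sh-A against sh-C. With size factors or DESeq2 no count of called members moved by over 1.5 times. With sh-A, 5 members were higher without the filter and 3 with 2 groups only. With sh-C, 19 were higher with 2 groups only. With the 3 set-apart libraries left out, 16 were lower with sh-A, 11 higher with sh-B and 24 higher with sh-C. In that setting 5 were higher for sh-B against sh-C, 15 lower for sh-A against sh-B and 31 lower for sh-A against sh-C. The cause was not tested, and fewer samples enter these fits. For sh-A without the filter and with 2 groups only, the shares of all genes called are not given here. Those counts are not read as particular to the members.

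With 1 library left out at a time, counts ranged from 1 to 7 higher and 6 to 11 lower with sh-A, 6 to 7 and 11 to 13 with sh-B, and 2 to 12 and 0 to 1 with sh-C. They ranged from 1 to 2 higher and 14 to 20 lower for sh-B against sh-C, 11 to 16 and 8 to 14 for sh-A against sh-B, and 3 to 5 and 11 to 26 for sh-A against sh-C. The high ends of 14 and 26 came without sh-A 3, and for sh-B against sh-C the 1 came without sh-C 1, 2 or 3. The shares of all genes called in these fits are not given here, so no such count is read as particular to the members.

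With the replicate block, sh-C gave 14 higher and 1 lower, although control and sh-C libraries of the same number share only that number (r = -0.058, -0.132 and 0.13). Not every one of these libraries correlated best with its own number. For sh-A against sh-B no label says that the numbers pair either, and same-numbered libraries stood at r = 0.298, 0.12 and 0.219. The block gave 17 higher and 8 lower for these 2 groups, moving neither count by over 1.5 times and gaining the calls of CDT1 and ORC6. There too not every library correlated best with its own number: sh-A 4 stood at 0.131 with sh-B 5 and 0.12 with sh-B 4. The shares of all genes called with the block are not given here, so its counts are not read as particular to the members.

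Values near 0 that did not pass changed sign. With the 3 set-apart libraries left out, CCNE1 was at -0.05 with sh-A and -0.13 with sh-B, and with sh-B CDC6 was at -0.02 and RRM2 at -0.04. TYMS with sh-B was at 0.0013 with DESeq2 and 0.0016 with size factors. With 1 library left out, CCNE1 ranged from -0.05 to 0.26 with sh-A, -0.14 to 0.20 with sh-B, -0.33 to 0.01 for sh-B against sh-C, -0.14 to 0.29 for sh-A against sh-B and -0.25 to 0.07 for sh-A against sh-C. PCNA with sh-A ranged from -0.09 to 0.02, CDT1 for sh-A against sh-C from -0.17 to 0.03, and MCM2 for sh-B against sh-C from -0.03 to 0.08. With sh-B, CDC6 ranged from -0.02 to 0.10, RRM2 from -0.05 to 0.12 and TYMS from -0.06 to 0.07. Depth did not limit the members, with at least 168.37 counts in a library, and 3 libraries a group limit the precision.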
